A study of Mus musculus with 13 samples.

Results

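Skeletal muscle takes up fatty acids and burns them in its mitochondria, and 32 genes of this route were followed here through 3 treatment groups of obese mice. The list names genes by step and sets no threshold on their values: 6 act in uptake, 8 in activation and carnitine transfer, 3 are thioesterases or the uncoupling protein gene Ucp3, 12 act in mitochondrial beta-oxidation and 3 encode the electron transfer flavoprotein chain. They are 32 of the 21868 gene rows in the normalized count table, and all 32 were among the 12303 rows with a mean normalized count of at least 10 that were tested. The libraries were bulk poly(A) RNA-seq of whole gastrocnemius, a mixed and mainly fast calf muscle, from male C57BL/6 mice (C57BL/6N for the sequenced muscle, by the study's legends) that were 7 weeks old when the study began. All 13 mice had eaten a 60 kcal% fat diet for 15 to 17 weeks and were then moved to chow, so no group was lean throughout. For 3 weeks, 5 mice (numbered 1 to 5) received phosphate-buffered saline as vehicle. Another 5 (13 to 17) received semaglutide, a GLP-1 receptor agonist, at 30 nM/kg/day by intraperitoneal injection. The labels give both of these groups a placebo as well, whose content is not stated. The remaining 3 (19, 21 and 22) received the same semaglutide. They drank water that held 0.114 g/mL of a ketone ester, which generates beta-hydroxybutyrate. The comparisons asked what semaglutide changed in muscle and whether the ketone ester altered that change.

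Circulating triglyceride is cut by lipoprotein lipase, and the freed fatty acids cross the muscle membrane with the help of CD36 and the fatty acid transport proteins and bind FABP3 in the cytosol. Long-chain acyl-CoA synthetases activate them, and the carnitine shuttle carries the acyl group into the matrix: CPT1 makes acylcarnitine, a carrier swaps it in, and CPT2 restores acyl-CoA. Beta-oxidation then repeats a cycle of dehydrogenation, hydration, a further dehydrogenation and thiolysis, with separate dehydrogenases for very long, long, medium and short chains, and passes electrons through ETF to ubiquinone. Malonyl-CoA, made at the outer mitochondrial membrane by ACC2 (Acacb) and removed by malonyl-CoA decarboxylase (Mlycd), blocks CPT1 and so sets the rate of entry.

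Gene counts summed to between 15319471 and 23498162 reads per library, and the members measured from 104 to 19242 normalized counts in any mouse, well clear of the counting limit. The skeletal muscle fibre markers (8 genes) summed to 1294800 to 2665130 normalized counts per mouse. Semaglutide mouse 13 stood apart. On the first principal component over all tested genes, which held 38.1% of the variance, it scored -9.12, against 31.8 to 52.5 for the other 4 semaglutide mice, -24.5 to -12.8 for the vehicle mice and -25.6 to -15.8 for the semaglutide + ketone ester mice. Its library label was kept, and results are given with and without it. Bulk RNA cannot tell fewer cells of a type from less RNA per cell, which holds for every level below.

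Per kilobase of transcript, Fabp3 was the most abundant member in vehicle muscle, at 8117 ± 2386 normalized counts per kb (SD, n = 5), followed by Lpl at 3619 ± 936 and Acadm at 3079 ± 394. The spread of Lpl and Acadm overlapped, and so did that of each neighbouring pair in the order that followed, Etfb, Acadl, Crat, Acadvl, Cpt1b, Hadha and Ucp3, all between 2053 and 2749 normalized counts per kb. At the low end, Acot2 stood at 210 ± 46, Cpt1a at 77.3 ± 12.3, the carnitine importer gene Slc22a5 at 67.6 ± 7.1 and the transport protein gene Slc27a4 at 50.1 ± 6.5. The muscle form of CPT1 was thus at 2242 ± 229 normalized counts per kb and the liver form at 77.3. These levels use the longest principal transcript of each gene, and the order depends on that choice. Counting all annotated exons instead moved Lpl from rank 2 to rank 11 of the 32. It also moved Acadm from 3 to 8 and Acadl from 5 to 2, and made Cpt1a the lowest.

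**Figure D1:**
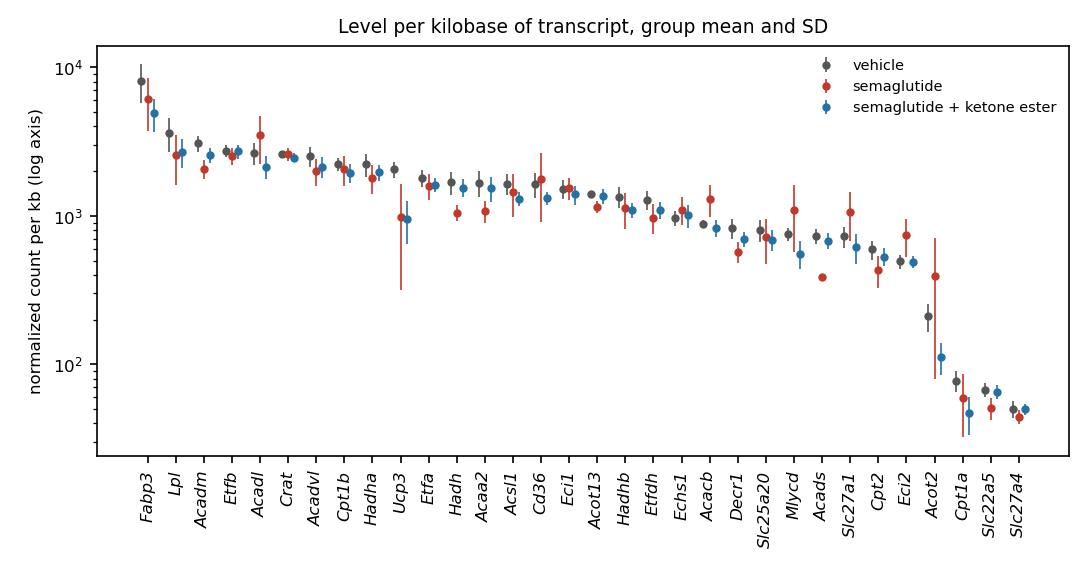
Normalized count per kilobase of the longest principal transcript (log axis) for the 32 genes, ordered by the vehicle mean; points are group means (vehicle n = 5, semaglutide n = 5, semaglutide + ketone ester n = 3) and bars are SD. Fabp3 sat highest at 8117 and Slc27a4 lowest at 50.1 in vehicle mice, and the widest semaglutide bars belonged to Acot2 and Ucp3.

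With semaglutide, more genes of the route were called lower than higher. Against vehicle, 7 of the 32 members fell and 1 rose (limma, Benjamini-Hochberg adjusted p under 0.05 over all 12303 genes), while 13.2% of all tested genes fell and 11.9% rose. The 7 that fell were Slc22a5, Acot13, Acadm, Acads, Hadh, Acaa2 and Decr1, and the 1 that rose was Acacb. Of the 13 fits that left out 1 mouse, 11 lost the call of Acacb, 7 that of Acot13 and 5 that of Slc22a5. The median log2 fold change of the members was -0.26, against -0.0029 over all genes, and 12 members had an unadjusted p under 0.05. Without semaglutide mouse 13 the same 7 members fell and 5 rose (Slc27a1, Acacb, Mlycd, Acadl and Eci2), with a member median of -0.11, while 18.9% of all genes fell and 17.3% rose. With columns rescaled to equal totals, which moved the median of all genes by 0.17, 3 members fell and 2 rose. Fold changes are differences of log2(normalized count + 1).

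**Figure D2:**
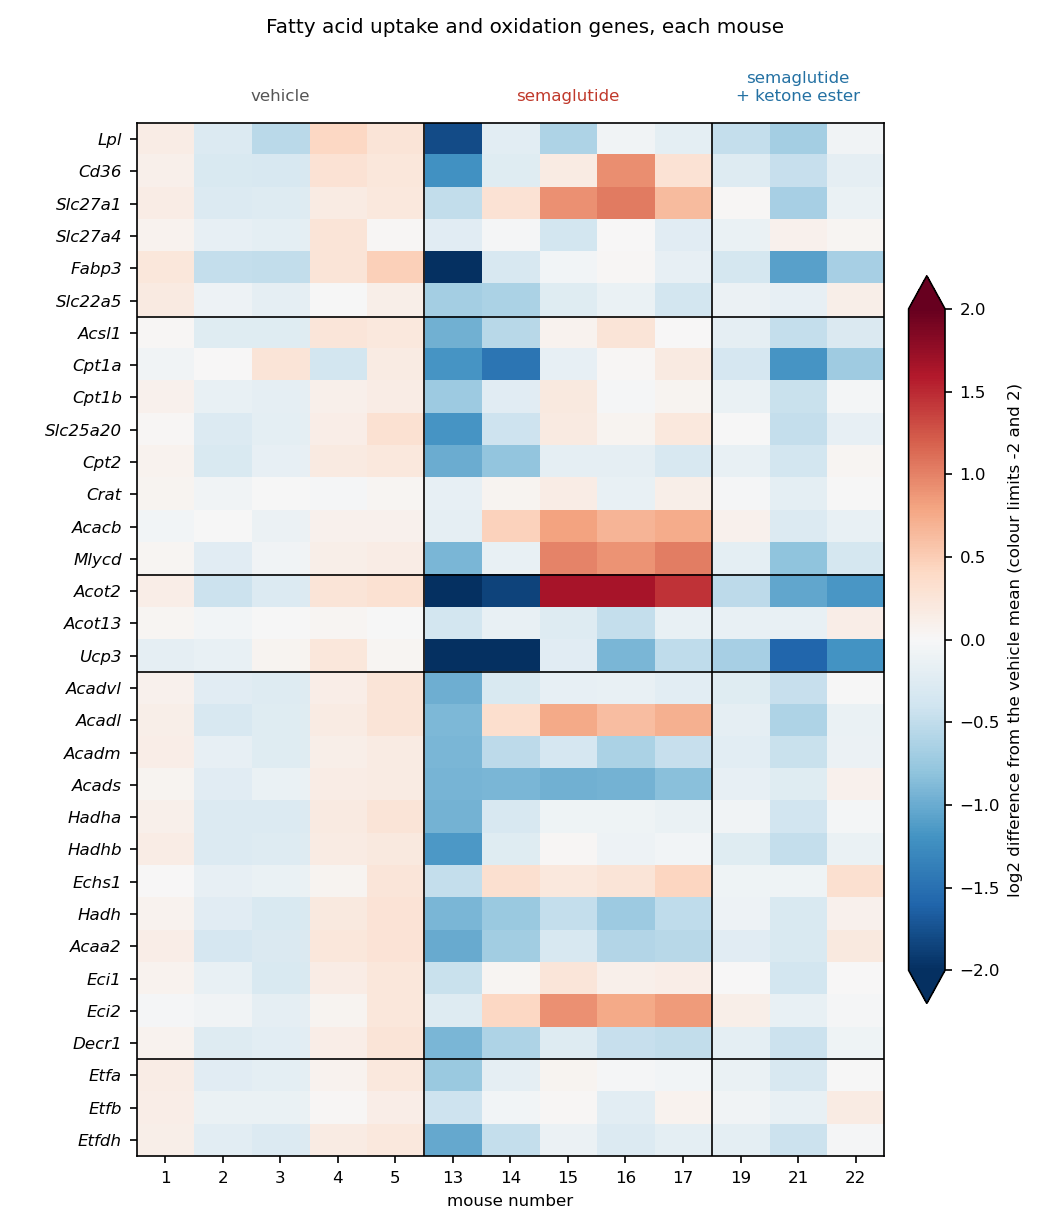
Difference of log2(normalized count + 1) from the vehicle mean for the 32 genes (rows, by step) in the 13 mice (columns, by group); blue is lower and red higher, and colours end at -2 and 2. Mouse 13 was below the vehicle mean in all 32 genes, whereas in mice 14 to 17 some rows were blue (Acads, Hadh) and others red (Acadl, Eci2). Vehicle mice 2 and 3 were below it in 31 and 30 genes.

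The mean over the 32 members on this scale was -0.92 in semaglutide mouse 13 and -0.43 in mouse 14, and 0.078, 0.036 and 0.046 in mice 15, 16 and 17. Vehicle mice ranged from -0.21 to 0.20, so mice 13 and 14 lay below every vehicle mouse and the other 3 lay within them. The semaglutide + ketone ester mice lay between -0.47 and -0.14. All 32 members were under the vehicle mean in mouse 13, 25 in mouse 14, and 16 to 18 in mice 15 to 17. In this count, though not in the mean over the members, vehicle mice varied as widely. The count was 31 in vehicle mouse 2, 30 in mouse 3 and 1 to 4 in the others. In semaglutide + ketone ester mice 19, 21 and 22 the counts were 28, 31 and 22.

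Of the 6 uptake genes, 1 fell and none rose with semaglutide, against 13.2% and 11.9% of all tested genes. A share of 1 in 6 is near that of all genes. Slc22a5 (OCTN2), which brings carnitine into the cell, measured 235, 191, 182, 204 and 222 normalized counts in vehicle mice 1 to 5 and 128, 132, 174, 188 and 159 in semaglutide mice 13 to 17. The semaglutide values were lower but the groups overlapped, with a log2 fold change of -0.41 (SE 0.12, adjusted p = 0.0293). Without mouse 13 it was -0.34 (adjusted p = 0.0411). The call was lost when vehicle mouse 1, 4 or 5 or semaglutide mouse 14 or 17 was left out, with an adjusted p of 0.0541 to 0.0684.

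Cd36, the main fatty acid translocase, measured 5886, 4440, 4363, 6685 and 6426 normalized counts in vehicle mice and 2359, 4632, 6104, 10443 and 6708 in semaglutide mice. Both the lowest and the highest mouse of the study were thus in the semaglutide group, and the log2 fold change was -0.01 (95% interval -0.69 to 0.66). Mouse 16, the highest for Cd36, also had the highest value in the semaglutide group for 7 of the 8 adipocyte markers, such as Adipoq and Plin1 at 1452 and 1126 normalized counts, while the other semaglutide mice held 16.9 to 147 and 4.5 to 113. The exception was Car3, which muscle also makes. The part of fat cell RNA in the Cd36 value of mouse 16 was not tested.

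Slc27a1 (FATP1) measured 2242, 1673, 1688, 2251 and 2344 normalized counts in vehicle mice, 1428, 2452, 3798, 4136 and 3122 in semaglutide mice, and 2040, 1267 and 1846 in semaglutide + ketone ester mice. Semaglutide mice 14 to 17 were above every vehicle mouse and mouse 13 was below them. The log2 fold change was 0.47 (SE 0.26, adjusted p = 0.206) with mouse 13 and 0.71 (adjusted p = 0.0126) without it. The remaining uptake genes did not pass the test. Lpl averaged 14892 ± 3851 normalized counts in vehicle and 10516 ± 3905 in semaglutide mice, with mouse 13 lowest at 4166. Fabp3 averaged 6681 ± 1964 and 5046 ± 1986, and Slc27a4 203 ± 26 and 180 ± 20.

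Among the 8 genes of activation and carnitine transfer, only Acacb passed the test, with a rise. Of all tested genes 11.9% rose and 13.2% fell, so 1 in 8 is near the share of all genes. Cpt1b, the muscle CPT1, measured 6843, 5827, 5725, 6912 and 7145 normalized counts in vehicle mice and 3896, 5523, 7371, 6358 and 6704 in semaglutide mice. The groups overlapped widely, and the log2 fold change was -0.15 (95% interval -0.49 to 0.20, adjusted p = 0.532). Leaving out mouse 13 brought it to -0.0019.

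Cpt1a, the liver form, measured 315, 332, 395, 257 and 370 normalized counts in vehicle mice and 145, 119, 295, 337 and 375 in semaglutide mice. Mice 13 and 14 were below all vehicle mice and mice 15 to 17 were among them. In the semaglutide + ketone ester mice it stood at 261, 145 and 201. The log2 fold change was -0.52 (SE 0.31, adjusted p = 0.238) for semaglutide against vehicle, and the SD was 53 in vehicle and 115 in semaglutide mice.

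The other genes of this step had no call. Acsl1, the main muscle acyl-CoA synthetase, averaged 6382 ± 1026 normalized counts in vehicle and 5618 ± 1788 in semaglutide mice. Slc25a20, the acylcarnitine carrier, averaged 1430 ± 237 and 1279 ± 430. Cpt2, which rebuilds acyl-CoA in the matrix, averaged 1408 ± 210 and 1020 ± 248, with a log2 fold change of -0.49 (adjusted p = 0.0573) that lay just outside the threshold. Crat, which buffers acetyl-CoA as acetylcarnitine, was the steadiest of the larger genes, at 10982 ± 402 and 11049 ± 1091 normalized counts, with a log2 fold change of 0.0039 (95% interval -0.17 to 0.18).

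The malonyl-CoA pair moved in mice 15 to 17 above all. Acacb measured 7521, 7769, 7154, 8308 and 8274 normalized counts in vehicle mice and 6866, 10761, 13632, 12448 and 13067 in semaglutide mice. Mice 14 to 17 were above every vehicle mouse and mouse 13 was below all of them. The log2 fold change was 0.50 (SE 0.17, adjusted p = 0.0432), and 0.67 (adjusted p = 0.000419) without mouse 13. With all mice the call lay close to the threshold and was lost in 11 of the 13 fits that left out 1 mouse (adjusted p 0.0524 to 0.105), which were those without any 1 of the vehicle mice, of semaglutide mice 14 to 17, or of mice 21 and 22.

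Mlycd, whose product degrades malonyl-CoA, measured 1635, 1357, 1522, 1721 and 1766 normalized counts in vehicle mice and 843, 1445, 3155, 2957 and 3243 in semaglutide mice. It was high in mice 15 to 17, within the vehicle range in mouse 14 and below it in mouse 13. The log2 fold change was 0.37 (adjusted p = 0.445), and 0.69 (adjusted p = 0.0339) without mouse 13. The within-mouse log2 ratio of Acacb to Mlycd was 3.02 and 2.90 in mice 13 and 14 and 2.01 to 2.11 in mice 15 to 17, while vehicle mice lay between 2.20 and 2.52. The semaglutide mice thus lay on both sides of the vehicle mice, and the group means of 2.42 ± 0.49 and 2.29 ± 0.13 did not differ detectably (two-sided exact permutation test, p = 0.524).

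Acot2 and Ucp3 split the semaglutide group most. Acot2, a matrix thioesterase that frees fatty acids from acyl-CoA, measured 495, 337, 372, 543 and 562 normalized counts in vehicle mice and 104, 125, 1427, 1425 and 1237 in semaglutide mice. Mice 13 and 14 lay below every vehicle mouse and mice 15 to 17 above, so the mean log2 fold change of 0.16 (SE 0.72) described no single mouse. Its neighbour Acot1, the cytosolic form and not a member, shares 23.0% of the 59-base stretches of Acot2, so reads of this pair may be split between them. Acot1 measured 26.1, 128, 437, 560 and 622 normalized counts in semaglutide mice 13 to 17 and 24.1 to 68.7 in vehicle mice, so mice 15 to 17 were also highest for it.

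Ucp3, an inner membrane carrier long linked to fatty acid oxidation, measured 4428, 4489, 5214, 5854 and 5140 normalized counts in vehicle mice and 1072, 429, 4256, 2666 and 3525 in semaglutide mice. Every semaglutide mouse was below every vehicle mouse, with mouse 14 lowest. The semaglutide + ketone ester mice, at 3140, 1665 and 2186, were also all below the vehicle mice. The log2 fold change was -1.48 (SE 0.52), the largest of any member, yet its adjusted p of 0.0536 missed the threshold, and it was -1.30 (adjusted p = 0.0864) without mouse 13. Acot13, a broad acyl-CoA thioesterase, fell by less and more evenly, from 1006 ± 28 to 832 ± 81 normalized counts, with all semaglutide mice below all vehicle mice (log2 fold change -0.28, SE 0.09, adjusted p = 0.0361). That call was lost when any 1 vehicle mouse or semaglutide mouse 15 or 16 was left out, with an adjusted p of 0.0551 to 0.0758.

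**Figure D3:**
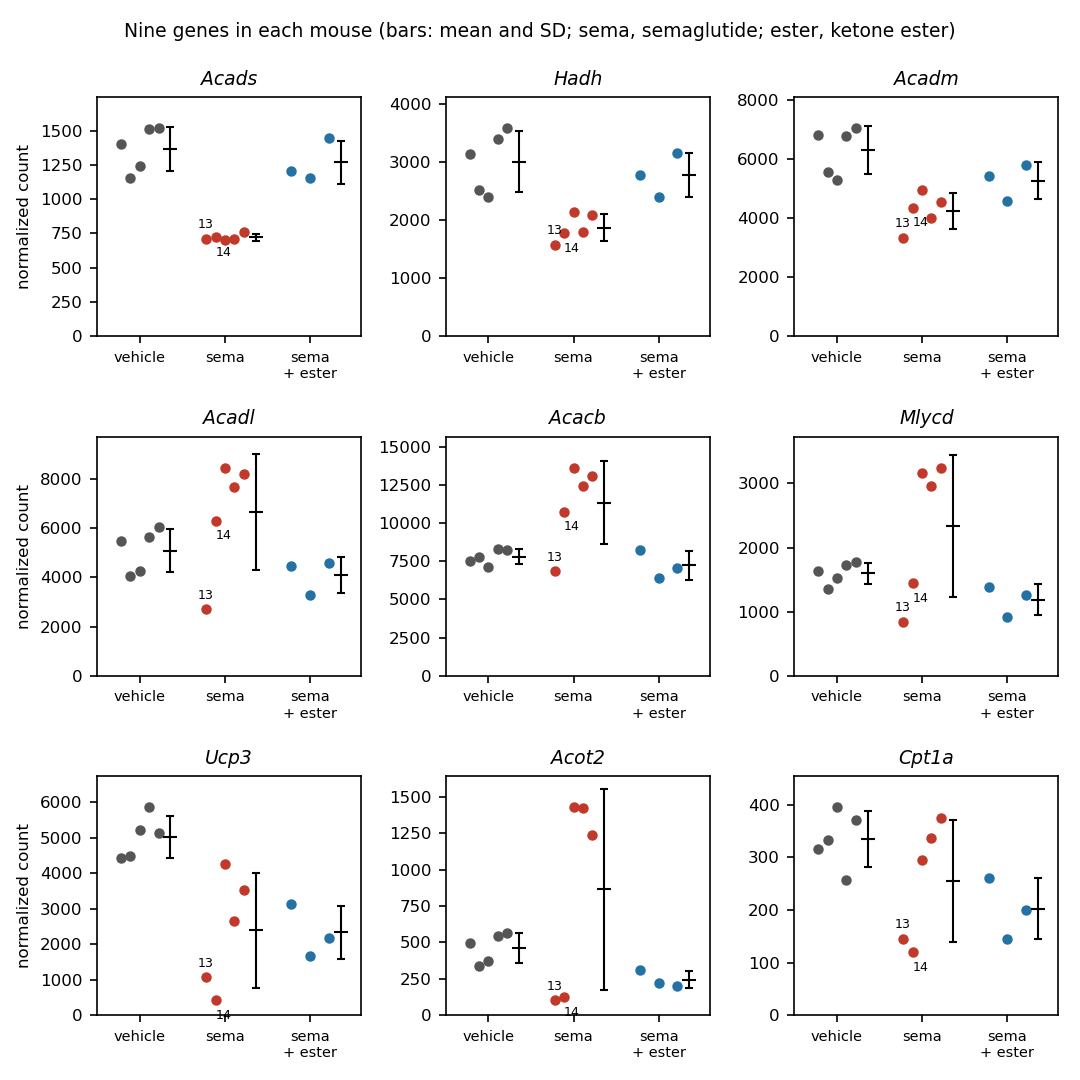
Normalized counts of 9 of the 32 genes in each mouse, on linear axes from 0, with the group mean and SD (bars) and semaglutide mice 13 and 14 numbered. Acads was at 699 to 763 in all 5 semaglutide mice, whereas Acadl, Acacb and Mlycd were high in mice 15 to 17, and Acot2 was at 104 and 125 in mice 13 and 14 and at 1237 to 1427 in the other 3.

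In beta-oxidation, 5 of the 12 genes fell with semaglutide and none rose, against 13.2% and 11.9% of all tested genes. Those that fell included the short-chain and medium-chain dehydrogenases. Without mouse 13, 5 fell and 2 rose, against 18.9% and 17.3%. Acads, the short-chain acyl-CoA dehydrogenase, measured 1404, 1156, 1241, 1510 and 1516 normalized counts in vehicle mice and 712, 722, 699, 707 and 763 in semaglutide mice. All 5 semaglutide mice, mouse 13 included, were far below the vehicle mice. Acads fell by 0.91 on the log2 scale (SE 0.10, adjusted p = 0.000151), and by 0.91 without mouse 13.

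Hadh, the hydroxyacyl-CoA dehydrogenase of the matrix for short and medium chains, measured 3132, 2526, 2399, 3393 and 3578 normalized counts in vehicle mice and 1577, 1773, 2131, 1793 and 2084 in semaglutide mice. The groups did not overlap. It fell by 0.67 on the log2 scale (SE 0.14, adjusted p = 0.00474), and by 0.61 without mouse 13.

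Acadm, the medium-chain dehydrogenase, measured 6829, 5567, 5301, 6777 and 7043 normalized counts in vehicle mice and 3336, 4356, 4970, 4016 and 4549 in semaglutide mice. Here too the groups did not overlap, and the log2 fold change was -0.57 (SE 0.13, adjusted p = 0.00732). Acaa2, the thiolase that ends each cycle for medium and short chains, measured 2721, 1978, 2031, 2914 and 3004 in vehicle mice and 1242, 1543, 1993, 1659 and 1689 in semaglutide mice, where mouse 15 reached the lowest vehicle mouse. It fell by 0.63 on the log2 scale (SE 0.16, adjusted p = 0.0158).

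Decr1, the dienoyl-CoA reductase needed for polyunsaturated fatty acids, measured 2567, 2030, 2112, 2659 and 2924 normalized counts in vehicle mice and 1297, 1595, 2046, 1767 and 1739 in semaglutide mice. Only mouse 15 reached into the vehicle range. Decr1 fell by 0.54 on the log2 scale (SE 0.14, adjusted p = 0.0147). Acads, Hadh, Acadm, Acaa2 and Decr1 all kept their call without mouse 13, with adjusted p between 0.000098 and 0.0204. Acaa2 and Decr1 lost it with columns rescaled to equal totals.

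Acadl, the long-chain dehydrogenase, and Eci2, an enoyl-CoA isomerase of mitochondria and peroxisomes, went the other way in 4 of the 5 semaglutide mice. Acadl measured 5480, 4047, 4264, 5626 and 6032 normalized counts in vehicle mice and 2700, 6313, 8456, 7672 and 8203 in semaglutide mice. Mouse 13 was below and mice 14 to 17 were above every vehicle mouse, and the log2 fold change went from 0.30 (adjusted p = 0.461) to 0.60 (adjusted p = 0.0104) when mouse 13 was left out. Eci2 measured 844, 821, 756, 891 and 1007 in vehicle mice and 719, 1142, 1616, 1448 and 1553 in semaglutide mice. Its log2 fold change was 0.53 (adjusted p = 0.0628) with mouse 13 and 0.73 (adjusted p = 0.000817) without it.

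Acads was therefore at 25.1 to 29.1% of the Acadl count in vehicle mice and at 26.4% in mouse 13, but at 8.26 to 11.4% in semaglutide mice 14 to 17. In semaglutide + ketone ester mice it was at 27.1 to 35.3%. This ratio was looked at after the values were seen and was not tested.

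The remaining beta-oxidation genes had no call. Acadvl, the very-long-chain dehydrogenase at the inner membrane, averaged 5492 ± 844 normalized counts in vehicle and 4330 ± 902 in semaglutide mice, with mouse 13 at 2751. Echs1, the short-chain hydratase, averaged 1514 ± 177 and 1707 ± 365, and Eci1, the main mitochondrial enoyl-CoA isomerase, 1725 ± 249 and 1744 ± 291. Hadha and Hadhb, the alpha and beta chains of the trifunctional protein that carries out the later reactions of the cycle on long chains, averaged 8917 ± 1533 and 2765 ± 446 normalized counts in vehicle mice. With semaglutide their log2 fold changes were -0.31 and -0.31, with adjusted p of 0.214 and 0.301. The Hadhb count was 29.9 to 32.1% of the Hadha count in vehicle mice, 27.0% in mouse 13, 30.9 to 33.2% in mice 14 to 17, and 27.6 to 29.1% in semaglutide + ketone ester mice, so the pair kept a narrow ratio.

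Hadha (chr5:30118304-30155162, minus strand, GRCm38) and Hadhb (chr5:30155248-30184593, plus strand) lie head to head, and their promoters are shown because the start regions are shared. The windows run from 250 bases before to 50 after the RefSeq start and have 228 bases in common. They are written 5′ to 3′ on each gene's own strand, and capitals mark the GC box, GGGCGG on either strand.
Hadha (chr5:30154931-30155230): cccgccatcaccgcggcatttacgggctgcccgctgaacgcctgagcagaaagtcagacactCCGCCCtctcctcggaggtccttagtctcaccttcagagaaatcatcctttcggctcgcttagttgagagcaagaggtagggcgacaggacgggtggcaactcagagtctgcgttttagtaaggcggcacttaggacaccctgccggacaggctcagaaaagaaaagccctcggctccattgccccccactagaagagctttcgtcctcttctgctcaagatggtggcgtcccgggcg
Hadhb (chr5:30155003-30155302): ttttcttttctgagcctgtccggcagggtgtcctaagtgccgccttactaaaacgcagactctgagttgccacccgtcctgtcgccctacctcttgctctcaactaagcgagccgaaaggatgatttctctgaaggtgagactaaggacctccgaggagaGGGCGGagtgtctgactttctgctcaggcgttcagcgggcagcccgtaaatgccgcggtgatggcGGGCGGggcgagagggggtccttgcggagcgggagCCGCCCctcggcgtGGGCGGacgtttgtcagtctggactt
The Hadha window holds 1 GC box and the Hadhb window 4.

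The promoters of Acads and Hadh are shown as those of the members with the smallest adjusted p, with the GC box again in capitals.
Acads (chr5:115119297-115119596, minus strand): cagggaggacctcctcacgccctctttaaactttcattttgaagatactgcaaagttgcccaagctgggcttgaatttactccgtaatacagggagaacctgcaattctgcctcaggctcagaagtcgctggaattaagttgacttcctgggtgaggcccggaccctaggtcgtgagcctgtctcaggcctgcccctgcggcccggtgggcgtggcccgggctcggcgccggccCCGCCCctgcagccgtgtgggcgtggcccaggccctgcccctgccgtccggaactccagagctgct
Hadh (chr3:131272052-131272351, minus strand): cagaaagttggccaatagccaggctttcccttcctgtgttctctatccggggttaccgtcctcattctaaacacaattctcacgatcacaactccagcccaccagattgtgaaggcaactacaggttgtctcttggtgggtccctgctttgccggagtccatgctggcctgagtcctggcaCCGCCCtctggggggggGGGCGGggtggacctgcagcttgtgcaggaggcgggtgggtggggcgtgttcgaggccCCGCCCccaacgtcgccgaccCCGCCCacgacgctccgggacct
They hold 1 and 4 GC boxes. Those of Acacb, the only member that rose, and Ucp3, the member with the largest fold change, have none. In these the capitals mark the hexamer AGGTCA on either strand, the core that many nuclear receptors bind.
Acacb (chr5:114165268-114165567, plus strand): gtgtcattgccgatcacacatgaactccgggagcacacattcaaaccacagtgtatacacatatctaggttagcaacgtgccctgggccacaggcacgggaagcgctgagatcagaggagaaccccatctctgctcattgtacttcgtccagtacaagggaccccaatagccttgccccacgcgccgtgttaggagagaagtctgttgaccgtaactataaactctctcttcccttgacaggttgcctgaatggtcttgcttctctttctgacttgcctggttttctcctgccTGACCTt
Ucp3 (chr7:100472741-100473040, plus strand): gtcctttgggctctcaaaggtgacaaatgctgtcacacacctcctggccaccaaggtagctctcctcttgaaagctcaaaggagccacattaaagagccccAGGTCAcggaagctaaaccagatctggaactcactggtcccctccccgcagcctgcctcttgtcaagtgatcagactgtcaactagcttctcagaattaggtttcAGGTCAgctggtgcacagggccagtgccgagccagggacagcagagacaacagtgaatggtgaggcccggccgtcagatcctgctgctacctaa
Acacb holds 1 and Ucp3 holds 2 of these hexamers. The Acacb window is at an internal start, since the annotated gene spans chr5:114146535-114250761, and reads at its other starts are not separated in these counts.

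RefSeq windows were found for 26 of the 32 members, and Lpl, Cpt1b, Crat, Acot13, Acaa2 and Decr1 had none in the table used. The GC box was in 17 of the 26, against 35.7% of all 32851 windows. The hexamer AGGTCA was in 7 (Cd36, Cpt1a, Acacb, Ucp3, Acadvl, Acadm and Echs1), against 16.3% of all windows. The direct repeat AGGTCANAGGTCA, which contains the hexamer, and the extended form TCAAGGTCA were in none of the 26, and in 0.0396% and 0.423% of all windows. A match describes letters in a window of 300 bases and no more.

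The electron transfer flavoprotein genes, through which all the acyl-CoA dehydrogenases pass their electrons, had no call in any comparison. Etfa averaged 2502 ± 333 normalized counts in vehicle and 2216 ± 434 in semaglutide mice, and Etfb 2455 ± 226 and 2265 ± 293. Etfdh, the oxidoreductase that hands the electrons to ubiquinone, averaged 3047 ± 461 and 2316 ± 522, with a log2 fold change of -0.42 (adjusted p = 0.0952) that was -0.26 without mouse 13.

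Adding the ketone ester to semaglutide was followed by higher Acads and Hadh and lower Acacb. Against semaglutide alone, 2 of the 32 members rose and 1 fell, while 9.09% of all tested genes rose and 9.3% fell. Acads measured 1207, 1154 and 1444 normalized counts in the semaglutide + ketone ester mice, all above every semaglutide mouse (at most 763), and rose by 0.81 on the log2 scale (SE 0.11, adjusted p = 0.00181). Hadh measured 2770, 2399 and 3161, again with no overlap, and rose by 0.57 (SE 0.16, adjusted p = 0.0263). Acacb measured 8277, 6419 and 7052 and fell by 0.61 on the log2 scale (SE 0.19, adjusted p = 0.0427), though semaglutide mouse 13, at 6866, lay inside that range. The Acacb call was lost without any 1 mouse except mouse 13 (adjusted p 0.0533 to 0.156), and that of Hadh without mouse 14, 19 or 22 (adjusted p 0.0504 to 0.121), whereas Acads kept its call in all 13 such fits. These 3 members had also been called against vehicle, and the same semaglutide mice serve in both comparisons.

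Without semaglutide mouse 13, the same 2 members rose and 5 fell (Slc27a1, Acacb, Mlycd, Acadl and Eci2), while 16.0% of all genes rose and 16.2% fell. Slc27a1 then had a log2 fold change of -0.98, Acacb of -0.79, Mlycd of -1.14, Acadl of -0.91 and Eci2 of -0.74, with adjusted p between 0.000502 and 0.00658. Mlycd measured 1391, 913 and 1253 normalized counts in the semaglutide + ketone ester mice, and Acadl 4453, 3269 and 4570, all below the 4 remaining semaglutide mice. With columns rescaled to equal totals, which moved the median of all genes by -0.24, 1 member rose and 4 fell, and Hadh lost its call.

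Of the 7 members that fell with semaglutide, Slc22a5 (log2 fold change 0.36, adjusted p = 0.0946), Acaa2 (0.52, adjusted p = 0.0714), Acadm (0.32, adjusted p = 0.143), Decr1 (0.31, adjusted p = 0.194) and Acot13 (0.23, adjusted p = 0.132) did not pass the test when the ketone ester was added. Acaa2, at 2117, 2024 and 2855 normalized counts, was nonetheless above all 5 semaglutide mice in all 3 mice. Ucp3 had a log2 fold change of 0.33 (95% interval -0.96 to 1.63) and Cpt1a of -0.23 (adjusted p = 0.691). The median member log2 fold change was 0.03, against -0.00024 over all genes.

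**Figure D4:**
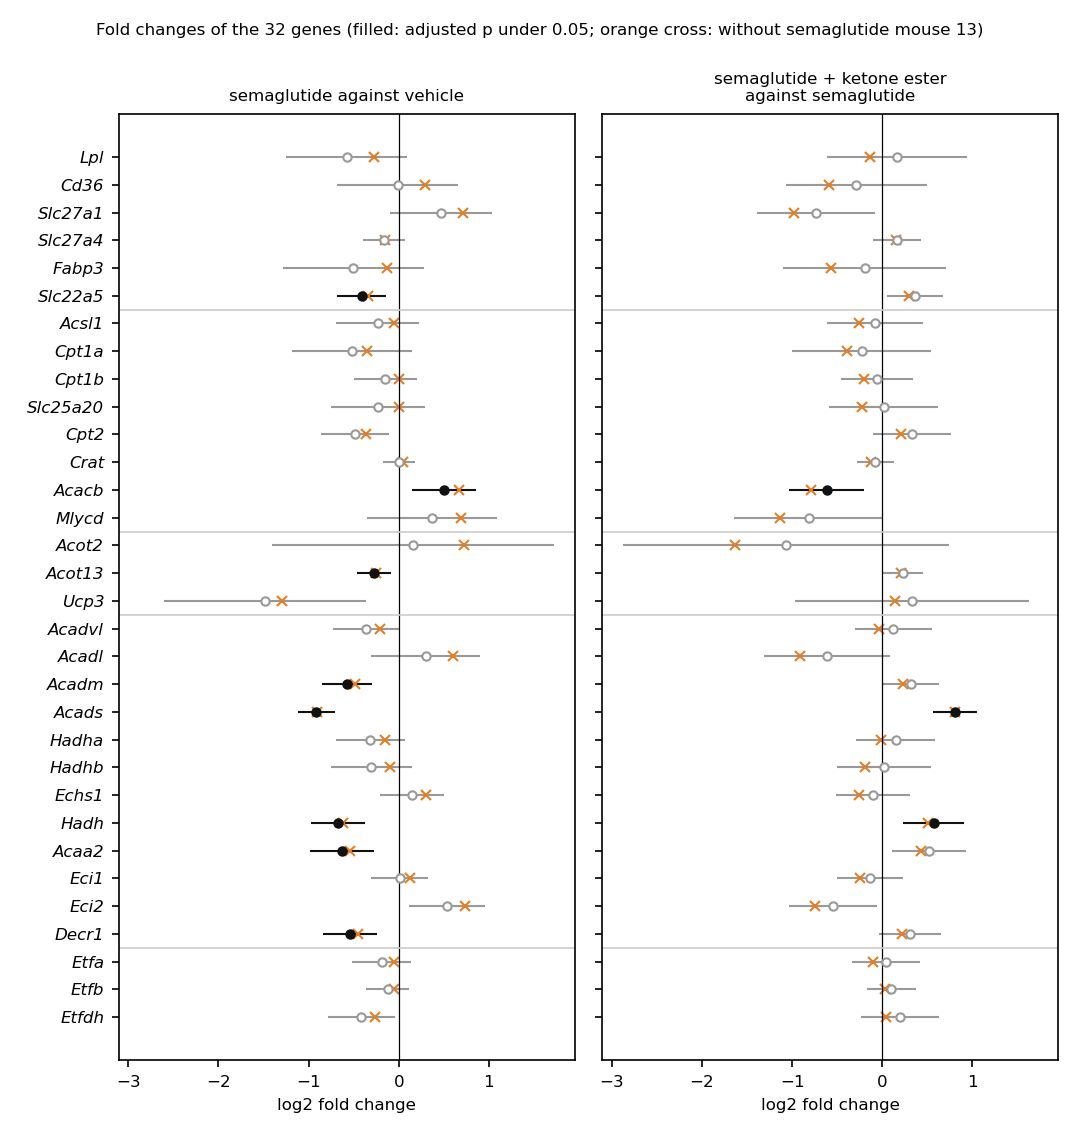
Log2 fold changes of the 32 genes with 95% intervals from limma, for semaglutide against vehicle (left) and semaglutide + ketone ester against semaglutide (right); filled points have an adjusted p under 0.05, and orange crosses give the estimate without semaglutide mouse 13. Acads was at -0.91 on the left and 0.81 on the right, and both panels share the semaglutide mice.

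Between semaglutide + ketone ester and vehicle mice no member passed the test in limma, and none had an unadjusted p under 0.05, while 0.0732% of all genes were higher and 0.163% lower. edgeR and DESeq2 on the recovered reads called none either. Of the 32 estimates 31 were below 0, with a median of -0.21, against -0.0059 over all genes. The median ran from -0.28 to -0.08 with 1 mouse left out. Vehicle mouse 2 alone also had 31 members below the vehicle mean. The members thus moved together within a mouse, and their number is not separate evidence of a difference. The 2 lowest estimates were Ucp3 at -1.15 (95% interval -2.44 to 0.15) and Acot2 at -0.91 (95% interval -2.72 to 0.90). In both, all 3 mice lay below all 5 vehicle mice, but neither was called (limma, adjusted p = 0.549 and 0.797). The share of all genes with such a separation was not counted. Cpt1a stood at -0.75 (95% interval -1.52 to 0.03) and Fabp3 at -0.70 (95% interval -1.60 to 0.20). Acads and Hadh, at -0.10 and -0.11, and Eci2, at -0.01, were near the vehicle level. With 3 mice these intervals leave room for sizeable differences.

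Neither ratio within a mouse passed the exact permutation test between any groups. The log2 ratio of Cpt1a to Cpt1b averaged -4.29 ± 0.33 in vehicle, -4.66 ± 0.54 in semaglutide and -4.82 ± 0.29 in semaglutide + ketone ester mice, with semaglutide mouse 14 lowest at -5.52. The largest difference, semaglutide + ketone ester minus vehicle, was -0.54 (two-sided exact permutation test, p = 0.0714, adjusted over 6 tests p = 0.214). For Acacb to Mlycd the same pair of groups differed by 0.34, with p = 0.0714 and an adjusted p = 0.214 in the same exact test. The smallest p this two-sided test allows is 0.00794 for 5 mice against 5, and it is larger for 3 against 5. After adjustment over 6 tests, no single comparison of 3 mice against 5 could pass, however far apart the groups lay. For those comparisons the lack of a call says little.

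By the study's own rule for altered genes, a p under 0.05 across the 3 groups and a fold of at least 1.5, 6 of the 32 members were altered (Acaa2, Acacb, Acads, Eci2, Hadh and Ucp3), against 16.1% of all tested genes. By the adjusted limma test 8 of the 32 members were called in any comparison, against 29.9% of all tested genes.

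The other genes of fatty acid handling were counted from 8 lists with 79 genes, of which 72 were tested. With semaglutide 13 of these fell and 4 rose, against 13.2% and 11.9% of all tested genes, and with the ketone ester added 9 rose and 4 fell, against 9.09% and 9.3%. Without mouse 13, 19 fell and 11 rose with semaglutide, against 18.9% and 17.3%, and 16 rose and 7 fell with the ester added, against 16.0% and 16.2%. Between semaglutide + ketone ester and vehicle none was called. By list, 4 of 15 other mitochondrial oxidation genes, 4 of 14 peroxisomal genes, 1 of 10 uptake and binding genes, 1 of 3 carnitine synthesis genes, 1 of 7 flavin supply and ETF assembly genes and 2 of 9 malonyl-CoA and AMPK genes fell with semaglutide. A share of 1 gene in 7 or 10 is near that of all genes. The 4 mitochondrial genes that fell were Acad8, of valine breakdown, and Pcca, Pccb and Mcee, of the propionyl-CoA pathway. Ech1, Acad9, Acad11 and Hsd17b10 of the same list were not called, with or without mouse 13. Without mouse 13, 7 of the 14 peroxisomal genes fell. Those that rose were 2 of 7 thioesterases, 1 of 7 acyl-CoA synthetases and 1 of the malonyl-CoA and AMPK genes.

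The 2 largest changes were rises. Acot1 had a log2 fold change of 2.33 (SE 0.73, adjusted p = 0.0357) with semaglutide and of -3.16 when the ester was added. Acsl6, an acyl-CoA synthetase, went from 541 ± 53 normalized counts in vehicle to 1884 ± 718 in semaglutide and 565 ± 34 in semaglutide + ketone ester mice, with log2 fold changes of 1.71 (adjusted p = 0.000505) and -1.65 (adjusted p = 0.00262). Acaca, the cytosolic acetyl-CoA carboxylase that feeds synthesis, rose by 0.79 on the log2 scale and Acot9, a mitochondrial thioesterase, by 0.65.

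Among those that fell, Phyh, which starts the breakdown of branched phytanic acid in peroxisomes, went from 2901 ± 429 to 1553 ± 220 normalized counts (log2 fold change -0.90, adjusted p = 0.00186), and rose by 0.71 with the ester. Tmlhe, the first enzyme of carnitine synthesis, had a log2 fold change of -0.85. The AMPK subunit genes Prkab2 and Prkag2 stood at -0.63 and -0.59, the peroxisomal reductase gene Pecr at -0.55 and the ETF regulator gene Etfrf1 at -0.52. All 10 of these genes had an adjusted p under 0.05, and kept it without mouse 13. Outside these 10, the AMPK subunit gene Prkag3 stood at -1.50 (limma, adjusted p = 0.0688), and at -2.12 (adjusted p = 0.000341) without mouse 13. Prkaa2, another AMPK subunit gene, went the other way, at 0.32 (adjusted p = 0.0519) and 0.35 (adjusted p = 0.0387).

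The next stages of oxidation gave a more even picture. Of 18 tricarboxylic acid cycle genes, 16 fell with semaglutide and 15 rose with the ester added, with medians of -0.48 and 0.59. Of 56 nuclear respiratory chain genes, 49 fell and 51 rose, with medians of -0.48 and 0.59. For these lists mouse 13 lay among or near the other semaglutide mice: its mean log2 difference from vehicle was -0.45 for the cycle, against -0.67 to -0.41 in mice 14 to 17, and -0.30 for the respiratory chain, against -0.73 to -0.34. In uptake, by contrast, it was at -1.07 against -0.19 to 0.30 in mice 14 to 17, and in beta-oxidation at -0.82 against -0.27 to -0.04. Whether the fatty acid genes differ from these lists was not tested.

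**Figure D5:**
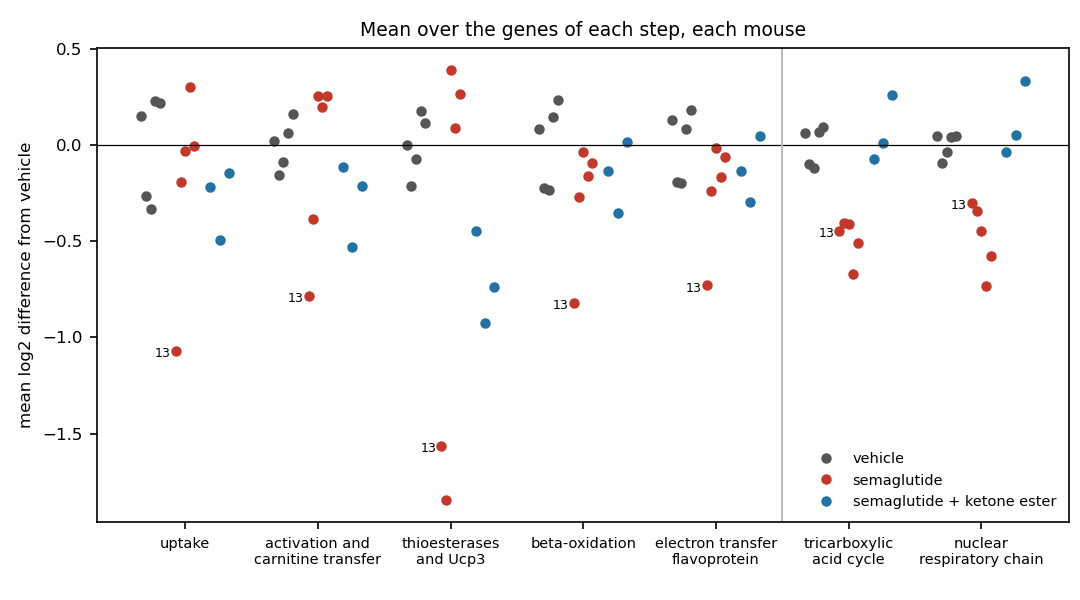
Mean difference of log2(normalized count + 1) from the vehicle mean over the genes of each step, 1 point per mouse, with mouse 13 numbered; right of the grey line are the 18 tricarboxylic acid cycle and 56 nuclear respiratory chain genes. Semaglutide points spread from -1.07 to 0.30 in uptake but from -0.67 to -0.41 in the cycle, where they lie apart from both other groups.

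Markers of other cells moved in part with the groups, and their part in the member values was not tested. Of 6 fibro-adipogenic markers 5 fell with semaglutide and 4 rose with the ester, and their sum was 5407 to 12117 normalized counts in vehicle, 4834 to 6521 in semaglutide and 6994 to 11443 in semaglutide + ketone ester mice. Red blood cell markers (5 genes) summed to 1356 to 2291, 50.5 to 3148 and 2849 to 5558, with none called against vehicle and 4 higher with the ester. Their median log2 fold change against vehicle was -2.41, all 5 had an unadjusted p under 0.05, and without mouse 13 all 5 fell (median -3.20) and all 5 rose with the ester. Mouse 13 held the highest red cell sum of the semaglutide group, and Hbb-bt and Alas2 were at 0 in at least 1 semaglutide mouse. Of 8 endothelial markers, cells in which Lpl acts and Cd36 is also made, none was called against vehicle and 2 rose with the ester, and their sum stayed between 4144 and 5342. Of 8 adipocyte and 6 macrophage markers none was called. Lep was at 0 in at least 1 semaglutide mouse. Their sums ran from 23741 to 84007 and from 331 to 1323 normalized counts over all mice, and Car3 alone gave 23583 to 82726 of the adipocyte sum.

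Of the 8 general muscle fibre markers, 3 fell and 1 rose with semaglutide, and 5 rose and 1 fell with the ester added. Of 6 slow fibre markers 1 fell with semaglutide, and the sum was 6819 to 31349 normalized counts in vehicle and 6355 to 18568 in semaglutide mice. The 3 fast myosins had 1 that fell, and their sum was 1091850 to 1369890 in vehicle and 645667 to 1185590 in semaglutide mice. In semaglutide + ketone ester mice the slow marker sum was 10344 to 20392 and the fast myosin sum 1445200 to 1649950. Fabp3, Lpl and the oxidation genes are richer in slow than in fast fibres, and whether fibre make-up moved with the members was not tested.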

How the data were processed

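The authors prepared stranded poly(A) libraries from total gastrocnemius RNA, sequenced 59-base pairs of reads on an Illumina NextSeq2000 and aligned them to mm10 with DRAGEN. They deposited 1 table of 21868 genes by 13 mice holding counts normalized by DESeq2 size factors, a signal that is not whole reads, and its annotation is not given in the sources used here. Each column is a whole multiple of 1 value, and 100.0% of values came out as whole reads within a tolerance of 0.01, which gave the depths and the reads used for count tests. Each library was taken as 1 mouse from the numbers in its labels, so p-values measure the spread between these libraries. The labels give 1 batch for all.

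Genes with a mean of at least 10 were tested in limma 3.58.1 (R 4.3.3) on log2(value + 1) in 1 fit of 3 groups with 3 contrasts, with Benjamini-Hochberg adjustment over 12303 genes. Fold changes on this scale understate those of low genes. The members and lists were chosen with earlier results of these data known. All 32 members are named. Of other fatty acid genes, the 10 largest changes past the threshold with semaglutide are named. Some mitochondrial oxidation genes, called or not, and Prkag3 and Prkaa2 are named besides, after their values were seen. By rule, values are given mouse by mouse for the 6 called members with the largest changes with semaglutide and, for their roles and whatever their values, Cpt1a, Cpt1b, Cd36, Acacb and Mlycd. They are also given for Slc22a5, Slc27a1, Acot2, Ucp3, Acadl and Eci2 because of their spread, which was seen first. Levels per kb use GENCODE M21 transcripts (GRCm38, the same build). Ratios within a mouse used the exact permutation test in scipy 1.17.1. Only the limma, edgeR and DESeq2 fits were tried on simulated counts. Their spread between mice was smaller than that of members such as Acot2 and Ucp3 in semaglutide mice.

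Alternatives were other pseudocounts, low-value filters, scalings and sample weights, fits of 2 groups only, edgeR 4.0.16 and DESeq2 1.42.0 on the recovered reads, leaving out each mouse, and, added after seeing the data, limma-trend and another transcript length.

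By 59-base stretches of annotated transcripts, Cpt1b shares 78.1% with the readthrough annotation Gm44502 (0 to 48.2 normalized counts), Acot2 23.0% with Acot1 and Slc22a5 22.3% with Slc22a21 (6.99 to 33.3). Etfb shares 42.2% with Gm45233, Fabp3 27.2% with Fabp3-ps1 and Hadhb 17.5% with Gm13910, which have no row in the deposited counts. In the same mice Cpt1b measured 3896 to 7371 normalized counts and Slc22a5 128 to 235. Reads may be split between such genes, by an amount that was not measured. The share of stretches is not that amount.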

Additional observations from a re-analysis of the deposited data

Results flagged for a closer look

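In groups of 5 mice, a value was picked out when its gap to the nearest other mouse exceeded 0.71 of the whole range (Dixon's 95% limit). Of 80 groups checked 3 were picked out, and chance alone picks about 1 in 20. Semaglutide mouse 13 measured 1618 normalized counts of Fabp3, against 5142 to 6532 in the other 4 semaglutide mice, and 2751 of Acadvl, against 4427 to 4921. Vehicle mouse 2 had a log2 ratio of Acacb to Mlycd of 2.52, against 2.20 to 2.27 in the other 4 vehicle mice. The causes were not tested.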

How the results depend on the processing

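No called member changed sign under any alternative. Members higher with semaglutide numbered 1, but 0 without a filter on low values or with only the 2 groups fitted, 2 with a mean of at least 100, equal totals, edgeR, DESeq2 or limma-trend, 5 with sample weights, and 0 to 5 when 1 mouse was left out. Members lower with semaglutide numbered 7, but 3 with equal totals, 5 without a filter, 8 with a pseudocount of 10 or DESeq2, 9 with a mean of at least 100 or limma-trend, and 5 to 8 with 1 mouse left out. With the ester added, members higher numbered 2, but 1 with equal totals or only the 2 groups fitted, 3 with a mean of at least 100, quantile normalization, DESeq2 or limma-trend, and 1 to 3 with 1 mouse left out. Members lower then numbered 1, but 0 without a filter or with only the 2 groups fitted, 4 with equal totals or DESeq2, 5 with sample weights, and 0 to 5 with 1 mouse left out. The member median with the ester added was 0.03, but -0.21 with equal totals, which moved the median of all genes by -0.24, and ran from -0.13 to 0.12 with 1 mouse left out. The higher counts with sample weights and without mouse 13 went with the same 5 members. Between semaglutide + ketone ester and vehicle no alternative called a member. No ratio within a mouse passed the test under any alternative, though a single comparison with the semaglutide + ketone ester mice could not have passed after adjustment.

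For single members, counted over all alternatives, 31 calls with semaglutide were lost and 24 gained of 768 values, and 19 lost and 19 gained with the ester added. Estimates that were not called changed sign in 8 and 13 members. No paired analysis was possible because the groups share no numbers. The cause of these changes was not tested beyond the scaling itself. All members measured at least 104 normalized counts in every mouse, and the number of mice and their spread limit the precision.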
